A study of Homo sapiens with 9 samples.

Results

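The 5 genes of the dihydropyrimidinase-like family (DPYSL2, DPYSL3, DPYSL4, DPYSL5 and CRMP1) and the 2 neuronal pentraxin genes (NPTX1 and NPTX2) were followed in A549 cells before and after transduction of reprogramming factors. Every non-control probe whose accession is a RefSeq transcript of 1 of these 7 genes was taken, which gave 11 of the 50599 probes of the array and 7 of the 21743 named genes. The genes were selected on the strong fall of DPYSL5 and the strong rise of NPTX1 between parental A549 and OSK-A549-Colony cells, so the values of that comparison are given as a description, without a test. RNA was measured on 9 single-colour Agilent arrays, 3 per group. Parental A549 (passage 98 or 99) is an established human lung adenocarcinoma line, untransduced here. OSK-A549 cells, taken at later passages that were the same in both fractions, are A549 cells that received OCT3/4, SOX2 and KLF4 by retrovirus and grew as round colonies with spindle-shaped cells around them. OSK-A549-SN is the spindle-shaped fraction, which left the dish early in trypsin, and OSK-A549-Colony is the fraction that stayed attached longer. Per the study's methods the RNA came from 3 independent transductions. The 2 transduced groups share the line, the factors and the later passage, so transduction and passage cannot be told apart against parental A549, and each sample is a bulk of cells in which fewer expressing cells and less RNA per cell cannot be told apart.

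The dihydropyrimidinase-like proteins, also called collapsin response mediator proteins, are cytosolic phosphoproteins that resemble the pyrimidine-degrading enzyme dihydropyrimidinase but do not have its activity. They carry the signal of semaphorin 3A from the neuropilin and plexin receptors to the growth cone, bind tubulin, and let go of it when phosphorylated by kinases such as CDK5 and GSK3. DPYSL5 (CRMP5) is the antigen of the anti-CV2 antibodies found in patients with small cell lung cancer and paraneoplastic neurological disease, and CRMP1 has been described as an invasion suppressor in lung cancer. The neuronal pentraxins are secreted proteins of the pentraxin family that bind and cluster AMPA-type glutamate receptors at synapses. A549 cells are epithelial, and all 6 epithelial markers looked at (EPCAM, CDH1, KRT7, KRT8, KRT18 and KRT19) were well above background on all 9 arrays, while of the 11 neuronal markers ELAVL3, ELAVL4, GAP43 and DCX were not well above background on any array, and RBFOX3, SYP, SNAP25, SYT1 and NEFL were on all 9.

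Each array carried 62976 spots, of which 357 to 484 had an outlier flag and 0 were saturated, and 25809 to 29316 probes per array were detected. Levels are given as the intensity of the scanner output, and differences as log2 of the intensity after subtraction of the array's 75th percentile, which lay between 217.5 and 270.7. A probe counts as well above background where its spots exceeded the local background by the scanner's own test, and the lowest such intensity was 7.91 to 13.5. Replicate arrays correlated at r = 0.983 to 0.993 in parental A549, 0.994 to 0.997 in OSK-A549-Colony and 0.987 to 0.996 in OSK-A549-SN over 23761 probes. The array of OSK-A549-SN replicate 3 lay alone on a second slide, so that array and its slide cannot be told apart. Of the transduced genes, KLF4 read 44.8 to 50.4 in parental A549, 158.4 to 709.8 in OSK-A549-Colony and 108.0 to 488.8 in OSK-A549-SN, while the 2 POU5F1 (OCT3/4) probes disagreed and the SOX2 probe overlapped between parental and transduced arrays.

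**Figure D1:**
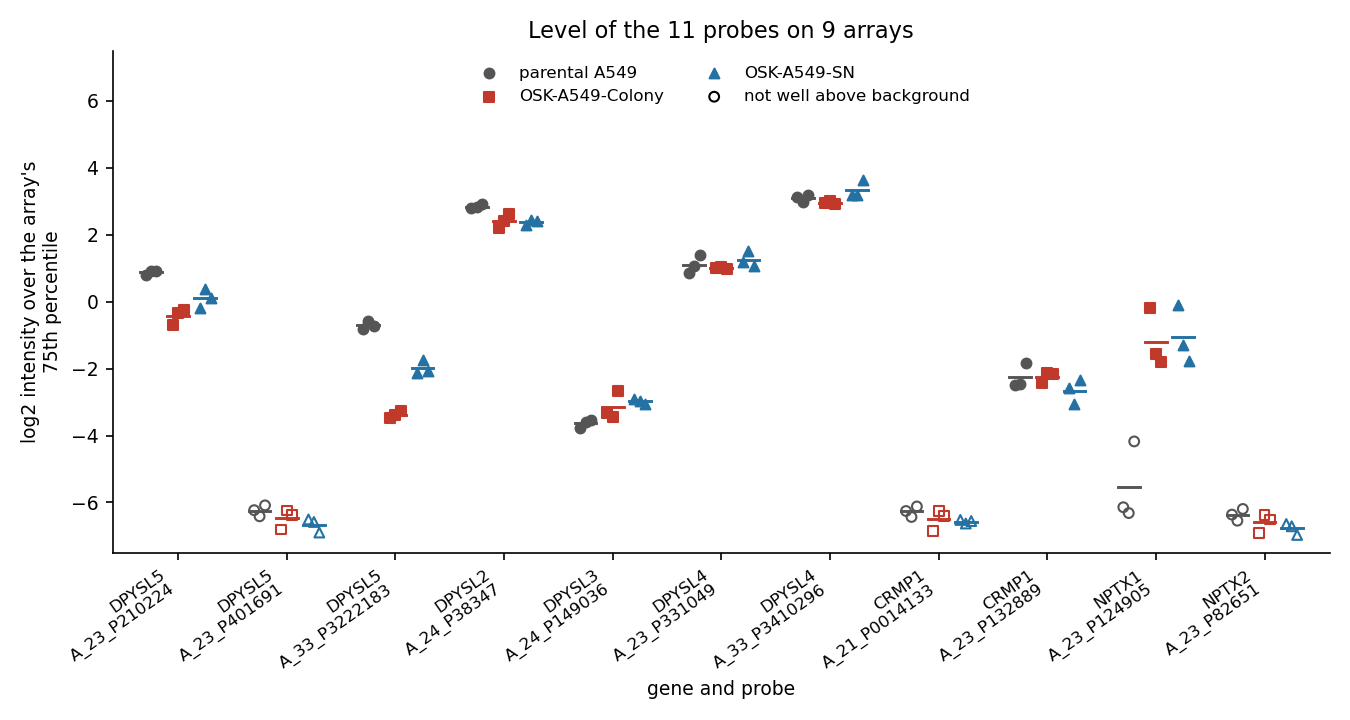
Level of each of the 11 probes (log2 intensity over the 75th percentile of the array) on the 3 arrays of each group, with bars at group means and open symbols where the probe was not well above background. The DPYSL5 probes A_23_P210224 and A_33_P3222183 sat lower in both transduced groups than in parental A549 and NPTX1 sat higher, and levels of different probes are not comparable with each other.

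DPYSL5 was the member with the lowest transduced levels relative to parental A549. Probe A_23_P210224 read 446.7, 475.1 and 409.9 on the parental arrays, 154.1, 184.2 and 204.3 on the OSK-A549-Colony arrays, and 202.1, 281.5 and 294.3 on the OSK-A549-SN arrays. Probe A_33_P3222183 read 146.1, 169.3 and 130.6 in parental A549, 22.5, 22.5 and 25.3 in OSK-A549-Colony, and 52.7, 65.7 and 65.1 in OSK-A549-SN. On both probes every parental array lay above every transduced array. On A_33_P3222183 the 3 groups were fully separate, with OSK-A549-SN between the other groups. On A_23_P210224 the transduced groups touched, since the highest OSK-A549-Colony array read 204.3 and the lowest OSK-A549-SN array 202.1, and they were separate only after scaling. The remaining DPYSL5 probe, A_23_P401691, read 2.24 to 3.40 and was not well above background on any of the 9 arrays.

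RefSeq lists 2 transcription starts for DPYSL5, 137 bases apart on the plus strand of chromosome 2, and their windows of 250 bases before to 50 bases after the start overlap. They are shown because DPYSL5 is the gene with the most lowered probes, and NPTX2 because it is the pentraxin with an entry in the promoter table. Capitals mark matches on either strand to the GC box GGGCGG and to the CACCC box, the kinds of sequence that Kruppel-like and Sp factors are known to bind (build GRCh38.p14, plus strand).
DPYSL5 start 1, chr2:26847745-26848044: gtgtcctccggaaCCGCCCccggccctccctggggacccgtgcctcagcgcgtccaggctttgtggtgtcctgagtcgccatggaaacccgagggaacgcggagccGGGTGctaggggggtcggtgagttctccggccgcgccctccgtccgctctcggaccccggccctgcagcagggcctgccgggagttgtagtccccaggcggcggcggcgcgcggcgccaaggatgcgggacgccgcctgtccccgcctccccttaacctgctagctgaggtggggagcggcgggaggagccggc
DPYSL5 start 2, chr2:26847882-26848181: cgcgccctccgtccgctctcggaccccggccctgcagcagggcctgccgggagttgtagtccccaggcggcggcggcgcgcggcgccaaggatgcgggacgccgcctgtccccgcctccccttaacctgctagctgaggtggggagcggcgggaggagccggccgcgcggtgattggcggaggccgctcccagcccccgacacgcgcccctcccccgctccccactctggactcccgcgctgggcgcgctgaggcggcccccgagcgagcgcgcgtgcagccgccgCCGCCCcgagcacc
NPTX2, chr7:98617035-98617334: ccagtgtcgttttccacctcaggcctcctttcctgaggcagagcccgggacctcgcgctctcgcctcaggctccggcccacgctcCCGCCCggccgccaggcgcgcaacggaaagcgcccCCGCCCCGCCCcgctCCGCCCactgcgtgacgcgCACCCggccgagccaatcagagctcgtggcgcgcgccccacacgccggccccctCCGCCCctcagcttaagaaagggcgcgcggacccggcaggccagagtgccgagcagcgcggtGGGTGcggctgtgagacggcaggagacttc
The DPYSL5 windows were 74.3% and 79.3% G or C with 34 and 44 CpG, and the NPTX2 window 74.3% with 39 CpG, against a median of 58.7% and 14 CpG over 35116 human promoter windows of this length. Each DPYSL5 window held 1 GC box, and the NPTX2 window held 5, of which a pair overlaps by 1 base. The GC box was present in 45% of all windows. CACCC was found once in the first DPYSL5 window and at 2 places in NPTX2, against 59.9% of all windows with at least 1. The octamer ATTTGCAT and the SOX motif ACAATG were found in none of these 3 windows, and are held by 1.77% and 10.8% of all windows. In all, 10 windows of 5 of the 7 genes were used, and the chromosome that carries DPYSL2 was left out of the search. The array did not measure binding or starts, so these matches are a description of the sequence.

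Between OSK-A549-Colony and parental A549, the log2 difference of DPYSL5 was -1.31 (SE 0.15, n = 3 per group) on A_23_P210224 and -2.67 (SE 0.12) on A_33_P3222183. These values chose the gene. The differences of the 2 probes were unequal on the deposited intensities. With normexp background correction (offset 50) they were -1.09 and -1.25 for OSK-A549-Colony and -0.65 and -0.73 for OSK-A549-SN, so the inequality was much smaller there. The offset is added to every intensity and lies above the 22.5 to 25.3 of A_33_P3222183 in OSK-A549-Colony. An added constant shrinks the differences of a dim probe most, and its part in the smaller inequality was not tested. The ratio of A_23_P210224 to A_33_P3222183 within an array, which no scaling factor between arrays can move but background correction can, was 3.06, 2.81 and 3.14 in parental A549, 3.84, 4.29 and 4.52 in OSK-A549-SN, and 6.85, 8.18 and 8.08 in OSK-A549-Colony. The group values were 3.00 ± 0.17, 4.21 ± 0.35 and 7.70 ± 0.74 (mean ± SD, n = 3 each), and no array of a group reached the range of another group.

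NPTX1 was measured by 1 probe, A_23_P124905. It read 3.6, 3.2 and 12.1 on the parental arrays, where it was not well above background on any. It read 218.0, 79.5 and 69.0 in OSK-A549-Colony and 216.1, 88.0 and 79.7 in OSK-A549-SN, well above background on all 6 arrays. The parental level is only a bound. Against the lowest measurable level of the parental arrays, the mean of NPTX1 was at least 8.04-fold higher for OSK-A549-Colony and at least 8.83-fold higher for OSK-A549-SN. Single arrays can lie below these folds. The fitted log2 differences were 4.35 and 4.49. NPTX2, the other neuronal pentraxin, is known as an immediate early gene of neurons (NARP). Its probe A_23_P82651 read 2.08 to 3.10 and was not well above background on any of the 9 arrays, so no level or difference of NPTX2 was measurable.

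The replicates of NPTX1 were far apart within both transduced groups. Its SD on the log2 scale was 0.86 among the OSK-A549-Colony arrays and 0.86 among the OSK-A549-SN arrays, larger than that of 99.6% and 99.2% of 23761 probes, whose median SD was 0.09 and 0.16. The highest array was replicate 1 in each group, 3.05-fold and 3.17-fold above the lowest array of its group after scaling. Among the transduced genes, which were looked at after these values were seen, KLF4 (A_23_P32233) was also highest on replicate 1, at 709.8, 294.2 and 158.4 in OSK-A549-Colony and 488.8, 319.1 and 108.0 in OSK-A549-SN. POU5F1 on probe A_24_P144601 read 699.9, 369.2 and 67.6 in OSK-A549-Colony and 766.1, 379.9 and 69.1 in OSK-A549-SN, against 46.2 to 75.9 in parental A549. SOX2 (A_23_P401055) read 34.0, 20.1 and 34.7 in OSK-A549-Colony and 44.5, 38.5 and 85.5 in OSK-A549-SN, and was not highest on replicate 1 in either group. The part of the transduced genes in the level of NPTX1 was not tested.

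**Figure D2:**
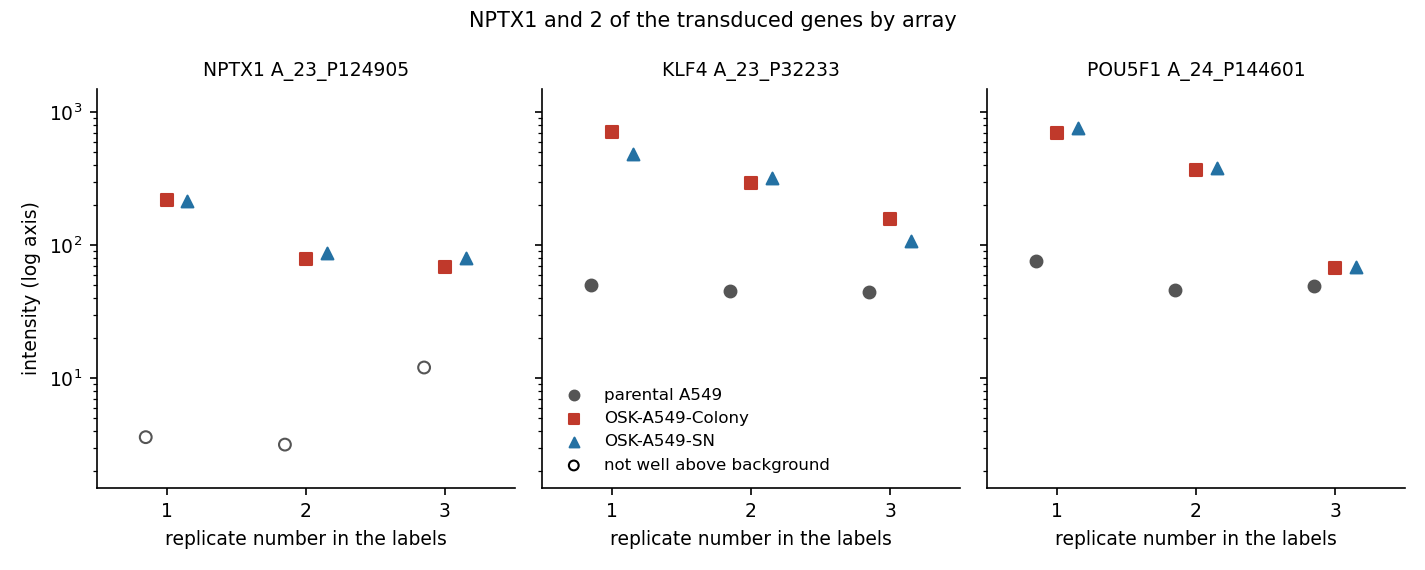
Intensity (log axis) of NPTX1, KLF4 and the POU5F1 probe A_24_P144601 on each array, placed by the replicate number in the labels, with open symbols where the probe was not well above background. In both transduced groups the array of replicate 1 was the highest for each of the 3 probes, 218.0 and 216.1 for NPTX1.

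DPYSL2 (CRMP2), which carries tubulin to the growing axon, was well above background on all 9 arrays. Its probe A_24_P38347 read 1776, 1788 and 1633 in parental A549, 1154, 1257 and 1477 in OSK-A549-Colony, and 1141, 1174 and 1440 in OSK-A549-SN. Both transduced groups lay below all parental arrays and overlapped each other. The log2 difference to parental A549 was -0.43 (SE 0.13) in OSK-A549-Colony.

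DPYSL3 (CRMP4), an actin- and tubulin-binding member, read near the lowest detected intensities but was well above background on all 9 arrays. Its probe A_24_P149036 read 18.8, 20.9 and 19.0 in parental A549, 25.2, 21.3 and 38.2 in OSK-A549-Colony, and 30.6, 28.0 and 32.5 in OSK-A549-SN. The transduced arrays lay above the parental ones after scaling, and the OSK-A549-Colony arrays were the more spread, with an SD of 0.43 on the log2 scale against 0.07 in OSK-A549-SN. The log2 difference of OSK-A549-Colony to parental A549 was 0.48 (SE 0.23).

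DPYSL4 (CRMP3) and CRMP1 had arrays of OSK-A549-Colony within or near the parental range. DPYSL4 read 462.7, 534.3 and 568.5 in parental A549, 499.5, 482.1 and 480.9 in OSK-A549-Colony and 529.2, 618.2 and 568.2 in OSK-A549-SN on probe A_23_P331049. Its other probe, A_33_P3410296, read 2209, 2004 and 2001 in parental A549, 1954, 1876 and 1842 in OSK-A549-Colony, and 2098, 2000 and 3355 in OSK-A549-SN. The differences of OSK-A549-Colony to parental A549 were -0.10 (SE 0.15) and -0.14 (SE 0.10). CRMP1 on A_23_P132889 read 45.0, 45.6 and 61.6 in parental A549, 46.8, 53.7 and 53.7 in OSK-A549-Colony and 38.7, 26.1 and 53.7 in OSK-A549-SN, a difference of OSK-A549-Colony to parental A549 of 0.02 (SE 0.22). The second CRMP1 probe, A_21_P0014133, read 2.19 to 3.34 and did not exceed background on any of the 9 arrays.

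**Figure D3:**
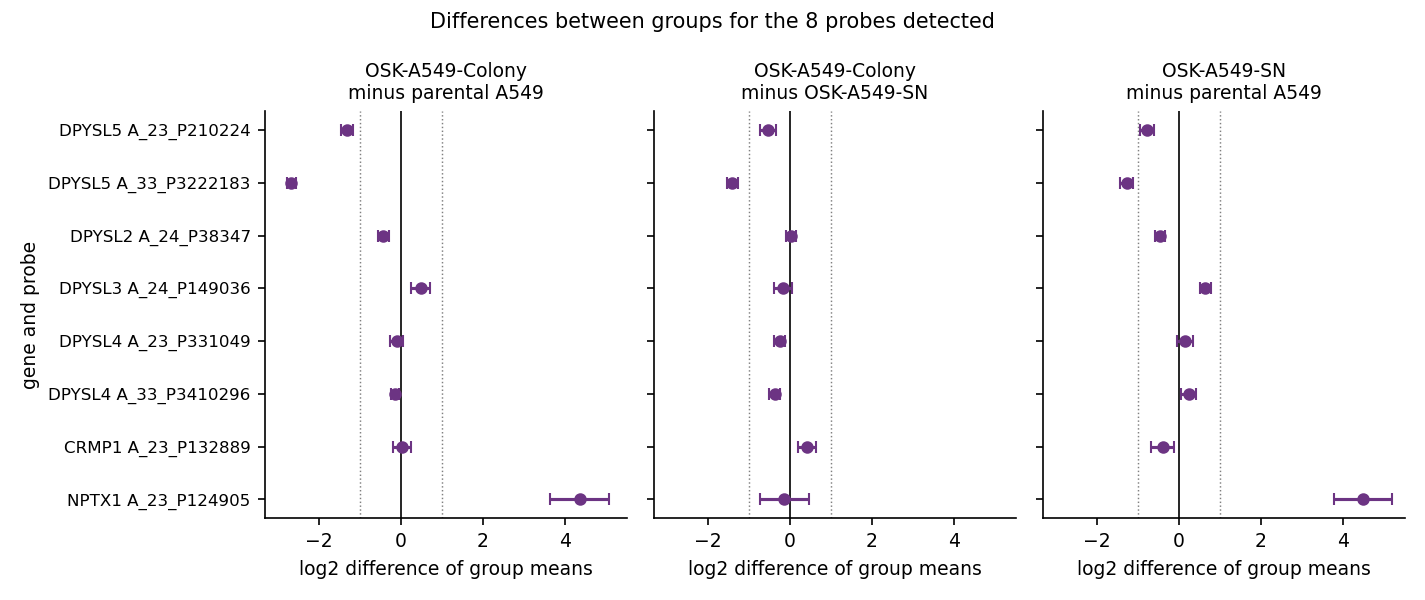
Log2 difference between group means for the 8 probes well above background on at least 1 array, with bars of 1 SE (n = 3 arrays per group) and dotted lines at a fold change of 2 in either direction. DPYSL5 lay left of 0 in all 3 comparisons (-2.67, -1.40 and -1.27 on A_33_P3222183), and NPTX1 lay at 4.35 and 4.49 against parental A549 and at -0.13 between the transduced groups.

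In the comparison that chose the genes (OSK-A549-Colony against parental cells), 3 of the 8 member probes tested passed an adjusted p under 0.05 with a fold over 2 (1 higher, 2 lower), where 3.71% of the 30869 probes tested did. The arrays of the groups did not overlap for 5 of the 8, against 41.6% of all probes. The other 3 of the 11 member probes were below the filter in every comparison. The median log2 difference of the 8 was -0.12, beside -0.03 over all probes tested. Nothing is read from these counts.

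OSK-A549-SN against parental A549 used transduced arrays that had no part in choosing the genes, but shares the 3 parental arrays with the comparison that did. DPYSL5 and NPTX1 were chosen for their differences to these parental arrays, so their values are given without a test. The log2 difference of DPYSL5 was -1.27 (SE 0.16) on A_33_P3222183 and -0.78 (SE 0.18) on A_23_P210224. NPTX1 was at least 8.83-fold higher by group means, with no parental array well above background. It passed the detection filter through the OSK-A549-SN arrays alone. DPYSL3 stood at 0.65 (SE 0.13, limma adjusted p = 0.0723) and DPYSL2 at -0.46 (SE 0.12, limma adjusted p = 0.110), both without overlap of the arrays and below a fold of 2. DPYSL4 stood at 0.15 (SE 0.20) and 0.24 (SE 0.17) and CRMP1 at -0.39 (SE 0.27), with limma adjusted p of 0.446 to 0.685 for the 3 probes. By the thresholds alone 2 of 8 member probes were past an adjusted p of 0.05 and a fold of 2, those of DPYSL5 and NPTX1, beside 1.54% of 32222 probes, and 5 of 8 did not overlap, beside 32.1% of all probes. Nothing is read from the count. The median of the 8 was -0.12, beside 0.08 over all probes. Among the 24183 probes well above background on all 6 arrays, 4.51% had a higher difference than DPYSL3.

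The difference of DPYSL5 on A_33_P3222183 between OSK-A549-SN and parental A549 ran from -1.39 to -1.19 with any single array removed and was -0.73 with normexp. The fitted difference of NPTX1 ran from 4.01 to 5.17 with any single array removed and was 1.39 with normexp.

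OSK-A549-Colony against OSK-A549-SN compares the 2 fractions of the transduced cells. None of the 8 member probes was called, and 0% of the 31747 probes tested were (660, or 2.08%, had an unadjusted p under 0.05 with a fold over 2, and 1 of the 8 members did). DPYSL5 stood at -1.40 (SE 0.14) on A_33_P3222183 and -0.53 (SE 0.20) on A_23_P210224. Since DPYSL5 was chosen on these OSK-A549-Colony arrays, its differences stand here as values only. NPTX1 stood at -0.13 (SE 0.60), with 95% limits of -1.62 and 1.35, and the ranges of its arrays overlapped. These limits treat the arrays as unpaired, while the differences between same-numbered arrays were -0.10, -0.25 and -0.05.

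The other members did not pass between the fractions. CRMP1 stood at 0.42 (SE 0.21, limma adjusted p = 0.329) and DPYSL3 at -0.17 (SE 0.22, limma adjusted p = 0.684). DPYSL4 stood at -0.37 (SE 0.14, limma adjusted p = 0.245) on A_33_P3410296 and -0.25 (SE 0.13, limma adjusted p = 0.352) on A_23_P331049, with all OSK-A549-Colony arrays below all OSK-A549-SN arrays on both probes. DPYSL2 stood at 0.03 (SE 0.13, limma adjusted p = 0.905), with 95% limits of -0.29 and 0.35. Without overlap were 4 of the 8 probes, all lower in OSK-A549-Colony, where 30.8% of all probes did not overlap in either direction. The median of the 8 was -0.21, beside -0.06 over all probes.

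The genes around the family were read from 11 lists with 100 genes, all on the array. A list gene is counted as called where at least 1 of its probes was. Of 78 list genes tested in OSK-A549-Colony against parental A549, 7 were called (4 higher, 3 lower), beside 4.49% of all 16422 genes tested. In OSK-A549-SN against parental A549 it was 5 of 77 (2 higher, 3 lower), beside 1.88% of 16776 genes. Between the fractions 0 of 77 were called, and 5 had an unadjusted p under 0.05 with a fold over 2, beside 2.2% of 16695 genes. The lists were chosen with results of these arrays known, and nothing is read from the counts. None of the class 3 semaphorins was called in any comparison, and SEMA3B, SEMA3C and SEMA3F were well above background on all arrays of every group. The median semaphorin difference to parental A549 was 0.28 for OSK-A549-Colony (5 genes) and 0.38 for OSK-A549-SN (6 genes), beside 0.03 and 0.09 over all genes tested. These medians include genes above background on a single transduced array and no parental one. They were SEMA3E for OSK-A549-Colony and SEMA3D and SEMA3G for OSK-A549-SN, so nothing is read from the medians. Among 9 receptor genes the 1 call was L1CAM, a co-receptor of semaphorin 3A, in OSK-A549-Colony against parental A549, on a probe that exceeded background on a single array of the former and none of the latter, so that no size is given. The other L1CAM probe, A_24_P207995, was not called. It exceeded background on no parental array, on 2 of OSK-A549-Colony and on all 3 of OSK-A549-SN, where it was at least 1.72-fold higher (limma adjusted p = 0.0706). It passed the detection filter through transduced arrays alone, so nothing is read from this p. NRP1, NRP2, PLXNA1, PLXNA3 and PLXND1 were well above background on all 9 arrays and not called.

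The kinases that phosphorylate the family, listed with the CDK5 activators CDK5R1 and CDK5R2, were well above background on every array for 11 of 11 genes, and 0 of 11 were called in any comparison. Their median difference to parental A549 was 0.08 for OSK-A549-Colony and 0.10 for OSK-A549-SN, beside 0.03 and 0.09 over all genes. Of the 14 cytoskeletal partners, 1 was called. TUBB3, a beta-tubulin best known from neurons, read 4037 to 4557 in parental A549, 7524 to 7897 in OSK-A549-Colony and 8430 to 10875 in OSK-A549-SN, and rose by 1.16 (SE 0.13, limma adjusted p = 0.0308) in OSK-A549-SN against parental A549. In OSK-A549-Colony its difference of 0.86 stayed under a fold of 2. Other members of the list stood lower or higher without being called. MAP2, a microtubule protein of dendrites, stood at -1.70 (SE 0.34, limma adjusted p = 0.0716) for OSK-A549-SN without overlap of the arrays, and at -0.53 (SE 0.25) for OSK-A549-Colony. MAPT, which encodes tau, stood on its 2 probes at -0.61 and -0.75 for OSK-A549-SN and at -0.87 (limma adjusted p = 0.0473) and -0.66 for OSK-A549-Colony, all under a fold of 2. MAP1B, a microtubule protein of growing axons, stood higher on both of its probes, at 0.76 (limma adjusted p = 0.0445) and 0.73 (limma adjusted p = 0.0329) for OSK-A549-Colony and 0.50 and 0.30 for OSK-A549-SN, also under a fold of 2. STMN1, a tubulin-binding protein, exceeded background throughout on 2 probes. On A_33_P3317523 it stood at -0.69 (limma adjusted p = 0.0346) for OSK-A549-Colony, under a fold of 2, and at -0.28 for OSK-A549-SN. On A_19_P00316238 it stood at -0.12 and 0.07. Each of its remaining probes exceeded background on a single array of OSK-A549-Colony and parental A549 together, so that no size is given for these.

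Among the enzymes of pyrimidine breakdown, to which the family is related by sequence, DPYS, the gene of dihydropyrimidinase itself, did not exceed background on any of the 9 arrays. UPP1, a uridine phosphorylase, rose on both of its probes. Probe A_23_P351275 read 355.3 to 516.9 in parental A549, 1386 to 1638 in OSK-A549-Colony and 1452 to 1651 in OSK-A549-SN, with a difference of 1.81 (SE 0.15, limma adjusted p = 0.0228) in OSK-A549-SN against parental A549. Probe A_23_P147805 rose by 1.04 (SE 0.13, limma adjusted p = 0.0348) in the same comparison. DPYD, TYMP and UPB1 were tested and not called.

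Of the other pentraxins, PTX3, the long pentraxin of innate immunity, was well above background in OSK-A549-Colony alone. Its probe read 3.34 to 3.61 in parental A549 and 7.56 to 10.8 in OSK-A549-SN, not well above background on any of these 6 arrays, and 42.6, 23.7 and 29.8 in OSK-A549-Colony, well above background on all 3. PTX3 was called in OSK-A549-Colony against parental A549, at least 2.36-fold higher, and with OSK-A549-SN as the reference it was at least 2.97-fold higher (limma adjusted p = 0.102). It passed the detection filter through the OSK-A549-Colony arrays alone, so nothing is read from the call or the p. NPTXR, the membrane-bound neuronal pentraxin receptor, was well above background on all 9 arrays with differences to parental A549 of 0.55 (SE 0.17) for OSK-A549-Colony and 0.84 (SE 0.19, limma adjusted p = 0.0886) for OSK-A549-SN. Of the AMPA receptor subunits, GRIA1 and GRIA2 were not well above background on any array and GRIA4 was on all 9, and none of the neuronal pentraxin partners was called.

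Of the 11 neuronal markers, 7 were tested and 3 were called lower in each comparison with parental A549, with 0 called higher, beside 4.49% and 1.88% of all genes called in either direction. The calls of RBFOX3 and SYT1 each rest on 1 of 2 probes. The median difference of the 7 genes to parental A549 was -0.42 for OSK-A549-Colony and -0.11 for OSK-A549-SN, beside 0.03 and 0.09 over all genes tested. RBFOX3, a splicing factor of neurons, read 6514 to 8332 in parental A549, 1227 to 1503 in OSK-A549-Colony and 1602 to 2152 in OSK-A549-SN on probe A_33_P3316953, and fell by 1.94 (SE 0.21, limma adjusted p = 0.0278) in OSK-A549-SN, while its other probe stood at 0.35 (SE 0.33, limma adjusted p = 0.577) there and at -0.21 (SE 0.18) for OSK-A549-Colony. SNAP25, a protein of vesicle release, fell by 1.05 (SE 0.17, limma adjusted p = 0.0466), and SYT1, the calcium sensor of that release, fell by 1.13 (SE 0.17, limma adjusted p = 0.0453) on A_23_P36795 with -0.25 on its other probe. SYP, NEFL, NEFM and STMN2 were tested and not called, and STMN2 exceeded background on 2 arrays of each transduced group and on no parental array. The summed level of the 11 markers (1 probe per gene) was 37.2 to 49.1 times the array's 75th percentile in parental A549, 11.8 to 16.7 for OSK-A549-Colony and 13.8 to 18.0 for OSK-A549-SN. Most of that gap was the RBFOX3 probe A_33_P3316953, without which the sum was 10.8 to 12.5, 6.47 to 10.7 and 5.89 to 11.1. Their part in the values of DPYSL5 was not tested.

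The remaining marker lists gave 1 call. CHGA, a granule protein of neuroendocrine cells, read 158.7 to 204.6 in parental A549, 406.7 to 522.3 in OSK-A549-Colony and 222.5 to 332.9 in OSK-A549-SN, and was called higher in OSK-A549-Colony against parental A549. Other genes of the same list stood apart in both directions without being called. CHGB stood at -0.97 (SE 0.33) for OSK-A549-Colony and -1.61 (SE 0.27, limma adjusted p = 0.0524) for OSK-A549-SN. NCAM1 exceeded background on 2 parental arrays and no transduced one, so that its difference has no measured size. SCG2, a granule protein, exceeded background on no parental array and on 2 of OSK-A549-Colony, and was at least 4.02-fold higher for OSK-A549-SN (limma adjusted p = 0.137). CALCA on A_24_P198178 exceeded background on all 6 transduced arrays and no parental one, at least 2.10-fold higher for OSK-A549-Colony (limma adjusted p = 0.0548) and at least 1.49-fold higher for OSK-A549-SN (limma adjusted p = 0.134). SCG2 and this CALCA probe passed the detection filter through transduced arrays alone, so nothing is read from these p. INSM1, NEUROD1, SCG3 and GRP were not well above background on any array. None of the 6 epithelial markers, and none of the 8 of 12 mesenchymal markers that were tested, was called in any comparison. CDH1 was 2.00-fold lower for OSK-A549-Colony against parental A549 (SE 0.17 on the log2 scale, limma adjusted p = 0.0320), just short of the fold required, and its log2 difference for OSK-A549-SN was -0.83 (SE 0.19, limma adjusted p = 0.0863), while that of KRT19 was 1.17 for OSK-A549-Colony (SE 0.29) and -0.05 for OSK-A549-SN (SE 0.21). Removing replicate 2 of either group left 0 list genes called in OSK-A549-Colony against parental A549. In OSK-A549-SN against parental A549, 0 list genes were called when replicate 1 or 2 of either group was removed.

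Among 15439 named genes, those whose log2 levels over the 9 arrays were most like DPYSL5 on A_23_P210224 were DKK1 (Pearson r = 0.984), NASP (0.977), RBBP4 (0.975), SCARA3 (0.974) and C20orf96 (0.973). On A_33_P3222183 they were FZD7 (0.985), MAP3K8 (0.983), PDGFRL (0.983), TPTEP1 (0.982) and PDHB (0.982). DKK1 and FZD7 are a secreted inhibitor and a receptor of Wnt signalling. The genes most like NPTX1 were DVL1 (0.986), COL5A1 (0.985), SERPINE2 (0.983), LINC00941 (0.983) and LETR1 (0.983). The 9 arrays fall into parental and transduced cells and share their scaling, so these r describe the arrays and carry no test.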

How the data were processed

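The authors hybridised RNA of 9 samples to single-colour Agilent arrays and deposited, per the file headers, the intensity of each spot from Agilent Feature Extraction 11.5.1.1, background-subtracted and not scaled between arrays (array design on hg19). A log2 table that the authors also deposited held the same values after 1 shift per array (100% within 0.001). Control and outlier-flagged spots were left out, log2 intensities were averaged per probe, and the array's 75th percentile was subtracted. A probe was detected where a share of at least 0.5 of its spots was significant and well above background. Each comparison was fitted on its own 6 arrays over probes detected on at least 1, with limma 3.58.1 in R 4.3.3 (lmFit, eBayes), and a call needed a fold over 2 together with an adjusted p (Benjamini-Hochberg) under 0.05. A list gene is called where any of its probes is. The script was tested on simulated data with shifted probes. Gene names (30275 of 50599 probes) came from RefSeq accessions, and promoter windows from RefSeq on GRCh38.p14.

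The genes, lists and tests were chosen with earlier results of these data known. Named are all member probes, the called list genes, and the 5 genes most like each DPYSL5 probe and NPTX1 among probes well above background on at least 3 arrays. Uncalled list genes given with values were picked after their values were seen. For a bound on a fold, each dim array was raised to its lowest value well above background where it lay under it. The bound is the fold between the group means of log2 levels, so single arrays can lie under it. Alternatives were normexp (offset 50), quantile normalization, the deposited log2 table, other detection filters, all 9 arrays in 1 fit, a block for slide or for replicate number, unadjusted p-values and leaving out each array. Precision is limited by the 3 arrays per group.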

Additional observations from a re-analysis of the deposited data

How the results depend on the processing

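The DPYSL5 differences kept their direction in all 3 comparisons under every alternative that could move it, as did those of NPTX1 against parental A549. These alternatives were normexp, quantile normalization, the slide block and leaving out each array. The detection filters, the replicate block, the joint fit of all arrays and unadjusted p leave the differences unchanged. The deposited table holds the same values after a shift per array. DPYSL5 and NPTX1 were chosen on these arrays, so the kept directions are not a test. Normexp lowered the NPTX1 differences to parental A549 to 1.34 for OSK-A549-Colony and 1.39 for OSK-A549-SN. The numbers of calls did not hold. The limit is 3 arrays per group, and levels near background (NPTX1 in parental A549, CRMP1 on A_21_P0014133, DPYSL5 on A_23_P401691, NPTX2) have no measured value. The causes of the changes below were not tested.

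For OSK-A549-Colony against parental A549 (1145 probes, 3 members and 7 list genes called), normexp gave 333 probes and 4 list genes, no detection filter 582 probes, and unadjusted p 2039 probes and 12 list genes. Without that filter the median of all probes moved from -0.03 to -0.15. Leaving out 1 array gave 0 (without OSK-A549-Colony replicate 2) to 1352 probes (1 without parental A549 replicate 2), 0 to 3 members and 0 to 11 list genes. Between the 2 fractions of transduced cells (0 calls), normexp gave 32 probes and 1 list gene, and unadjusted p 660 probes, 1 member and 5 list genes. The strict filter gave 139 probes, 1 member and 1 list gene, and all 9 arrays in 1 fit 9 probes and 1 member. That member was DPYSL5, which was chosen on these OSK-A549-Colony arrays, so nothing is read from its calls. For OSK-A549-SN against parental A549 (497 probes, 2 members and 5 list genes), normexp gave 232 probes and 1 member, no detection filter 215 probes and 0 members, the strict filter 981 probes and 10 list genes, all 9 arrays in 1 fit 1084 probes and 11 list genes, and unadjusted p 1880 probes and 14 list genes. With slide as a block 187 probes (74.9% higher, against 45.5% before), 0 members and 2 list genes were called. Leaving out 1 array gave 0 (without OSK-A549-SN replicate 1 or 2) to 190 probes, 0 to 1 members and 0 to 2 list genes.

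Differences near 0 changed sign. CRMP1 in OSK-A549-Colony against parental A549 was -0.0006 with normexp and -0.093 to 0.2454 with 1 array left out (-0.0777, -0.0319 and -0.0094 in 3 of these), and DPYSL4 on A_23_P331049 was -0.2235 to 0.0382. Between the fractions, DPYSL2 was -0.0696 to 0.1349 (-0.0102 without OSK-A549-SN replicate 1) and NPTX1 -0.6286 to 0.3439 (0.05 and 0.1749 without OSK-A549-Colony replicate 2 and 3).

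With the replicate number as a block (replicate block), 0 probes, 0 members and 0 list genes were called in every comparison. The labels do not say what a shared number stands for. Deviations of same-numbered arrays correlated at r = 0.239, 0.0727 and 0.137 between the fractions over 23761 probes, where each array correlated best with its own number. In the comparisons with parental A549 they correlated at -0.196 to 0.150, where this did not hold, which does not bear on the fractions. Same-numbered arrays of the fractions shared the passage, and per the study's methods OSK-A549-SN cells were collected from dishes of colonies. The labels do not give pairs, so the main fits are unpaired. If the fractions were paired, the limits of NPTX1 between them are too wide. Subtracting the same-numbered OSK-A549-SN array from each OSK-A549-Colony array gave -0.10, -0.25 and -0.05 for NPTX1.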
